A study of Mus musculus with 8 samples.

Results

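The genes described here encode the proteins of the mitochondrial ribosome (symbols Mrpl and Mrps) and of the translocases that carry proteins into mitochondria (symbols Tomm and Timm). They were taken by symbol alone, and a gene entered when a probe of it had a detection p-value under 0.05 on at least 4 of 8 arrays, with its brightest such probe as its value. This gave 43 genes of the 4137 named genes measured: 18 of the large ribosomal subunit, 15 of the small subunit, 6 of the outer membrane translocase (TOM) and 4 of the inner membrane translocases (TIM). The annotation used for names holds 104 protein-coding genes with such symbols, of which 48 had a named probe. The other 5 of these (Mrpl32, Mrps36, Timm23, Timm29 and Tomm20) had a probe that was detected on 0 of 8 arrays, with raw signals between 31.4 and 45, and were not tested. The filter had no close cases, since 46 of 47 kept probes were detected on 8 arrays, the remaining one (a second Mrpl1 probe) on 7, and the 7 probes left out on 0.

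The tissue was mammary tumour of female FVB/N-Tg(MMTV-PyVT)634Mul/J mice, in which the MMTV promoter directs the polyoma virus middle T oncogene to the mammary epithelium, and every tumour of both groups carries that transgene. The 4 tumour samples of the drug group came from mice given SKI-606 (bosutinib), an oral inhibitor of Src and Abl family kinases, at 100 mg/kg by gavage in methocellulose with a detergent. The 4 control samples are titled as vehicle-treated, and the carrier is recorded for both groups as 0.5% methocellulose with 0.4% detergent. The labels give neither the age of the mice nor the length of treatment, and nothing in them ties each array to an animal of its own, so a p-value here covers only the spread among the 8 samples, which may be technical. Below, a tumour stands for 1 sample on 1 array.

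Mitochondria keep a ribosome of their own, which makes a small set of respiratory chain subunits from mitochondrial DNA. All of its proteins are encoded in the nucleus, made in the cytosol and imported. Precursors pass the outer membrane through the TOM complex and then enter the matrix or inner membrane through the TIM23 and TIM22 complexes, while small Tim proteins escort hydrophobic precursors across the space between the membranes. Tumour cells that grow quickly often express these genes highly, as they do genes of the cytosolic ribosome.

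All 8 arrays carry 1 chip identifier, with the SKI-606 samples at the first positions and the vehicle samples at the last, so chip position and group cannot be told apart. Detected probes numbered 11837 to 12467 on the SKI-606 arrays and 11957 to 12578 on the vehicle arrays. The 18S ribosomal RNA probe read 4136 to 10194 with SKI-606 and 8898 to 13712 with vehicle (raw signal), and its part in the results was not tested. The luminal keratin gene Krt8 read 12.98 ± 0.34 with SKI-606 and 13.08 ± 0.12 with vehicle (normalized log2 signal, SD, n = 4), so the epithelial marker was present in both groups. One label of SKI-606 replicate 2 (its source name) speaks of human islet-derived cells, whereas its title, tissue and strain match the other tumours, and the sample was kept in its titled group. Without it, 15 of 43 members were lower and 2 higher at an unadjusted p under 0.05, against 1367 and 993 of 12281 probes. The members' median difference was then -0.20, and the groups did not overlap for 17 members and 2324 of all probes. With fewer arrays, non-overlap is easier to reach.

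Promoter sequences are shown for the member with the smallest p-value and for 3 members that read lower in SKI-606 tumours and hold a searched motif before the start site. Each is the 250 bases before the annotated start, 5′ to 3′ on the gene's strand, from RefSeq (GRCm38.p6). Capitals mark matches to CCGGAAG, the core bound by ETS factors such as GABP, or to GCATGCG, a core of the NRF1 site. Both factors are known as regulators of nuclear genes for mitochondrial proteins.
Mrpl47, chr3:32736756-32737005 (- strand): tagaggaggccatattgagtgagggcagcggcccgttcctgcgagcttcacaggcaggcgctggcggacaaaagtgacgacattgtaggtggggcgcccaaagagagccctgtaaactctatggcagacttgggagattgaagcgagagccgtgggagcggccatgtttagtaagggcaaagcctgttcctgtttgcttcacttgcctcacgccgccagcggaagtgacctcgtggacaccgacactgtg
Mrpl17, chr7:105811088-105811337 (- strand): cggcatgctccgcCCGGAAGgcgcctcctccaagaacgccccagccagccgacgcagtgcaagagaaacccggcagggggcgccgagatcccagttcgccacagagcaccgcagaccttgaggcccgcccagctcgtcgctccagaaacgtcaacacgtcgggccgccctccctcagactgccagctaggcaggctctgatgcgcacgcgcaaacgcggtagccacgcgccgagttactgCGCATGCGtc
Mrpl51, chr6:125191950-125192199 (+ strand): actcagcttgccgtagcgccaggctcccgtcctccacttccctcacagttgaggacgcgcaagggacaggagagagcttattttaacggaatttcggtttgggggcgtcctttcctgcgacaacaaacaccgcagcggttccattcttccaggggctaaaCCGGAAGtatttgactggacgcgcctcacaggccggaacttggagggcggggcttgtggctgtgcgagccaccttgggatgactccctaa
Timm8b, chr9:50603651-50603900 (+ strand): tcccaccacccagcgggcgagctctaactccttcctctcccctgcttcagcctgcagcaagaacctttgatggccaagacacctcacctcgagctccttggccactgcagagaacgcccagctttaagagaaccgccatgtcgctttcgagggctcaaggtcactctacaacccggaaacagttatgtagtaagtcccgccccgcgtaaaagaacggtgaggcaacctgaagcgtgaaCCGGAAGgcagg

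Over the window from 250 bases before to 50 after the start, searched on both strands, 18 of the 39 members with a promoter in the table (46.2%) held CCGGAAG, against 12.95% of 17492 protein-coding genes and 8.86% of all 32851 promoters. GCATGCG was found in 4 of 39 (10.3%, against 4.96% of protein-coding genes and 3.58% of all promoters). AAGATGG, a core of the site of the factor YY1, was found in 6 of 39 (15.4%, against 7.18% and 6.34%). The capitals near the start of Mrpl17 hold GCATGCG on both strands, in overlapping positions, and its ETS core starts at position -237 from the gene's start. In Mrpl51 and Timm8b the ETS core starts at -90 and -12. CCGGAAG stood in 8 of the 14 members with a promoter that read lower at an unadjusted p under 0.05, and in 10 of the other 25. The counts of the other 2 motifs were small, and no split between the 14 and the 25 was tested. GCATGCG stood in 1 of the 14 and 3 of the 25, and AAGATGG in 1 and 5. The Mrpl47 window held none of the 3 motifs. A match is a description of letters and was not tested as a binding site.

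In SKI-606 tumours most genes of the mitochondrial ribosome and import machinery read lower than in vehicle tumours, by small amounts. Of 43 members, 37 had a lower and 6 a higher mean, and their median difference was -0.20 on the log2 scale, against -0.01 over all 12281 probes tested. With array weights the members' median was -0.12. The spread of each member's difference is drawn in the plot of differences by gene. No member passed the threshold of an adjusted p under 0.05 in limma's test over all probes, the smallest adjusted p being 0.113. Array weights were the only alternative of those tried in which a member passed (1 of 43, beside 185 of 12281 probes). Without adjustment, 15 members were lower at p under 0.05 (34.9%) and 1 was higher. The background for this is that 10.3% of all probes tested were lower at that level and 6.04% were higher, while 0.00814% (1 probe) passed after adjustment. At an adjusted p under 0.1 the count of members was still 0, against 0.244% of all probes. Among named genes represented in the same way, 8.94% were lower and 6.48% higher at an unadjusted p under 0.05, and 52.3% had a mean below the vehicle mean. With each array scaled to a common median in place of quantile normalization, the median difference of all probes was -0.15, with 2568 lower and 124 higher at that level (1262 and 742 before), and the members stood at a median of -0.48, with 19 lower and 0 higher.

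Every SKI-606 tumour read lower than every vehicle tumour for 12 members (27.9%), and the reverse held for 0. Over all probes the groups did not overlap for 11.2%, with 7.42% lower and 3.76% higher, and over named genes 5.92% were lower without overlap. With arrays scaled to a common median the count was 6 of 43 members, against 1474 of 12281 probes. The members were bright as probes go, with a median log2 signal of 9.90 against 7.39. Among the 3365 probes with a mean log2 signal over 9, a limit set after the values were seen, 13.2% were lower and 7.25% higher at an unadjusted p under 0.05, 8.62% were lower without overlap, and 56.3% had a mean below the vehicle mean. With quantile normalization the members' shares were above these backgrounds. With arrays scaled to a common median, their share without overlap lay near that of all probes. As the genes were chosen with earlier results known, no test was made of the list.

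**Figure D1:**
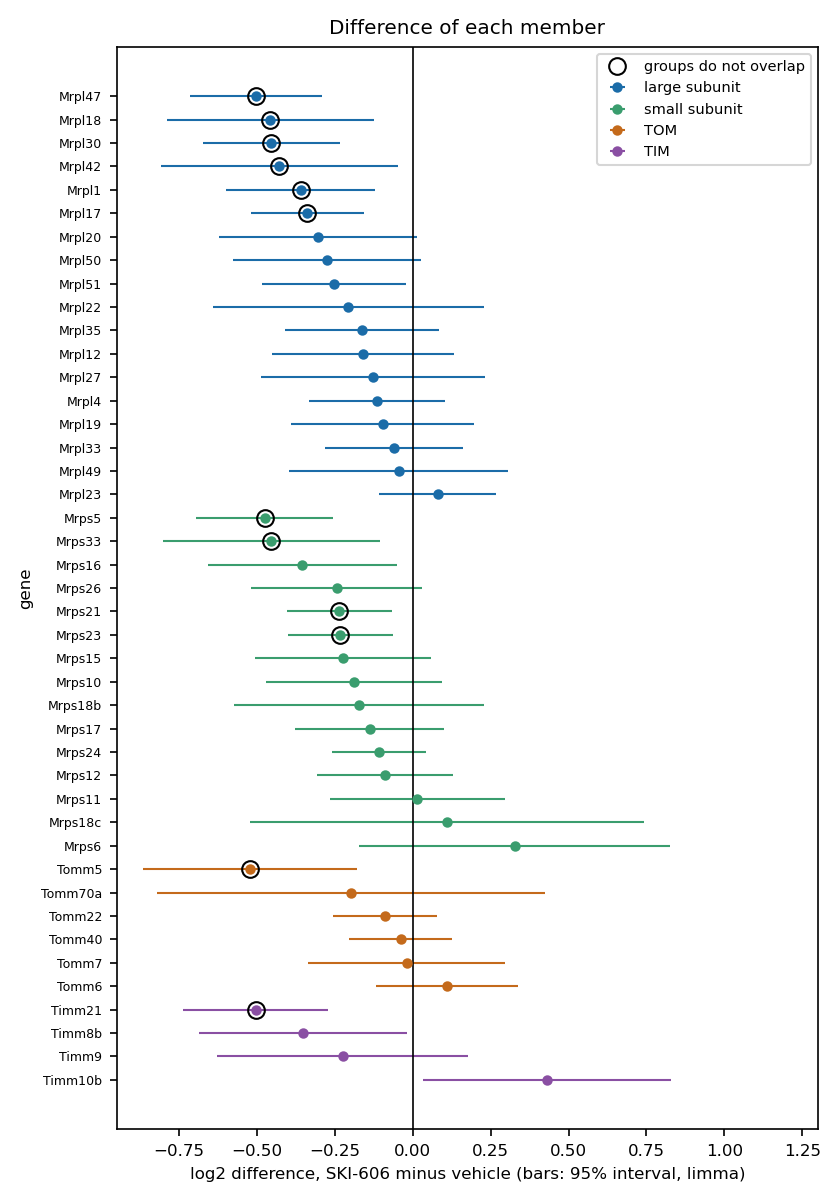
Each row is a member gene, and the x axis is the log2 difference, SKI-606 minus vehicle, with its 95% interval from limma (n = 4 per group), coloured by role. Open circles mark the 12 genes whose groups do not overlap, all of them left of 0, and the points run from -0.52 (Tomm5) to 0.43 (Timm10b).

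**Figure D2:**
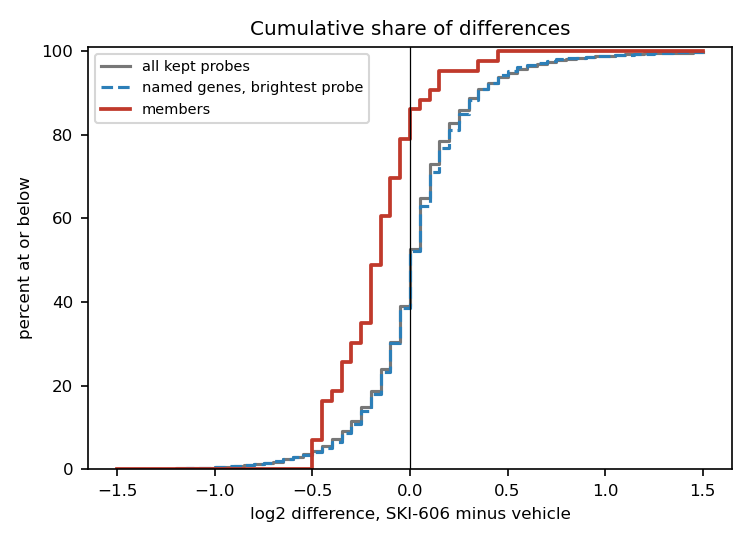
Cumulative percent of features (y axis) at or below a log2 difference, SKI-606 minus vehicle (x axis), for the 43 members, all 12281 probes tested and 4137 named genes. The members' curve lies to the left, at 86.0% below 0 where all probes stand at 52.6%.

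The large subunit, in which peptide bonds are formed, gave the most uniform picture. Of its 18 measured proteins 17 had a lower mean in SKI-606 tumours, 7 at an unadjusted p under 0.05, and the median difference was -0.23. Mrpl47, a protein near the exit of the peptide tunnel, read 8.91, 9.06, 8.92 and 9.29 in SKI-606 replicates 1 to 4 and 9.61, 9.51, 9.51 and 9.57 in the vehicle tumours (log2 signal). The groups did not overlap, and replicate 4 was the SKI-606 tumour nearest to the vehicle level. Its difference was -0.50 ± 0.09 (SE), a level 1.42-fold lower, with a 95% interval of -0.72 to -0.29 and a limma adjusted p of 0.113.

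Mrpl30, of the same subunit, read 9.85, 9.81, 9.60 and 9.98 with the drug against 10.25, 10.12, 10.35 and 10.34 with vehicle. Its highest SKI-606 value lay below its lowest vehicle value, and the difference was -0.45 ± 0.09 (SE; limma adjusted p = 0.113). Mrpl17, whose promoter is printed above, read 11.59, 11.78, 11.63 and 11.68 against 11.91, 11.98, 11.97 and 12.19. The SKI-606 tumours were close together here, and the difference of -0.34 ± 0.08 (SE; limma adjusted p = 0.134) had no overlap of groups.

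Mrpl1, a protein of the flexible L1 stalk where spent transfer RNA leaves, read 9.29, 9.10, 8.87 and 9.21 with SKI-606 and 9.40, 9.37, 9.60 and 9.53 with vehicle. The difference was -0.36 ± 0.10 (SE; limma adjusted p = 0.18), again without overlap. A second, dim Mrpl1 probe with a mean log2 signal of 6.13 differed by -0.03 (limma adjusted p = 0.807), so the 2 probes of this gene disagree in size. The same held for Mrpl51, at -0.25 on its bright probe and 0.01 on a dim probe with a mean of 6.31.

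Mrpl18 and Mrpl42 also had groups that did not overlap, with differences of -0.46 ± 0.14 and -0.43 ± 0.16 (SE). In both, SKI-606 replicate 3 was the lowest array, at 7.75 and 9.02. Mrpl12, which sits in the stalk that recruits translation factors, read 11.46, 11.67, 11.05 and 11.48 against 11.57, 11.64, 11.59 and 11.51. SKI-606 replicate 2 was its highest array, and its difference was -0.16 ± 0.13 (SE; limma adjusted p = 0.588), or -0.04 without SKI-606 replicate 3. Leaving out replicate 2 instead gave -0.25. The dimmest large subunit probe was that of Mrpl35, at 6.47 ± 0.14 and 6.63 ± 0.17 (SD, n = 4), with a difference of -0.16, which was -0.09 without vehicle replicate 4 and -0.05 with array weights. Mrpl23 was the large subunit gene with a higher mean, at 11.17 ± 0.14 against 11.09 ± 0.06.

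The small subunit, which reads the messenger RNA, had 12 of 15 proteins with a lower mean, 5 of them at an unadjusted p under 0.05, and a median difference of -0.19. Mrps5, a protein of the messenger RNA entry side, read 9.73, 10.17, 9.85 and 9.93 in SKI-606 tumours and 10.34, 10.39, 10.39 and 10.46 in vehicle tumours. The vehicle values lay within a narrow band above all SKI-606 values. The difference was -0.48 ± 0.09 (SE), a level 1.39-fold lower, with an interval of -0.70 to -0.26 and a limma adjusted p of 0.113. When arrays were weighted by quality, with the smallest weight (0.390) on SKI-606 replicate 3, it was -0.43 ± 0.07 and passed (limma adjusted p = 0.0379). In that setting 185 of 12281 probes passed.

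Mrps33, a protein that only mitochondrial ribosomes have, read 9.98, 10.01, 9.49 and 10.21 against 10.51, 10.39, 10.32 and 10.28. Its difference of -0.45 ± 0.15 (SE; limma adjusted p = 0.213) was largest in SKI-606 replicate 3, and it was -0.31 without that array. Mrps21 and Mrps23 differed by -0.24 ± 0.07 and -0.23 ± 0.07 (SE), both without overlap of groups. Mrps16 differed by -0.35 ± 0.13, and its SKI-606 replicate 1 (9.66) lay level with the lowest vehicle tumour (9.66).

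Mrps12, a core protein of the decoding centre, read 10.98 ± 0.12 and 11.06 ± 0.14 (SD, n = 4), a difference of -0.09 with an interval of -0.31 to 0.13. It was -0.04 without SKI-606 replicate 2 or vehicle replicate 4, -0.14 without vehicle replicate 2 and -0.03 with array weights. Mrps24, the brightest small subunit probe, read 12.14 ± 0.05 and 12.24 ± 0.10, and Mrps26, the dimmest, 6.85 ± 0.11 and 7.09 ± 0.22, a difference of -0.24 that was -0.14 without vehicle replicate 4. The 3 small subunit genes with a higher mean were Mrps6, Mrps18c and Mrps11. Mrps6 read 11.87, 11.17, 11.80 and 11.98 against 11.14, 11.20, 11.38 and 11.79, so SKI-606 replicate 2 lay at the low end of the vehicle values and vehicle replicate 4 near the other SKI-606 tumours (difference 0.33, interval -0.17 to 0.83). Mrps18c, a paralogue of Mrps18b, was set apart by vehicle replicate 4, at 9.46 where the other 3 vehicle tumours read 10.40 to 10.64.

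**Figure D3:**
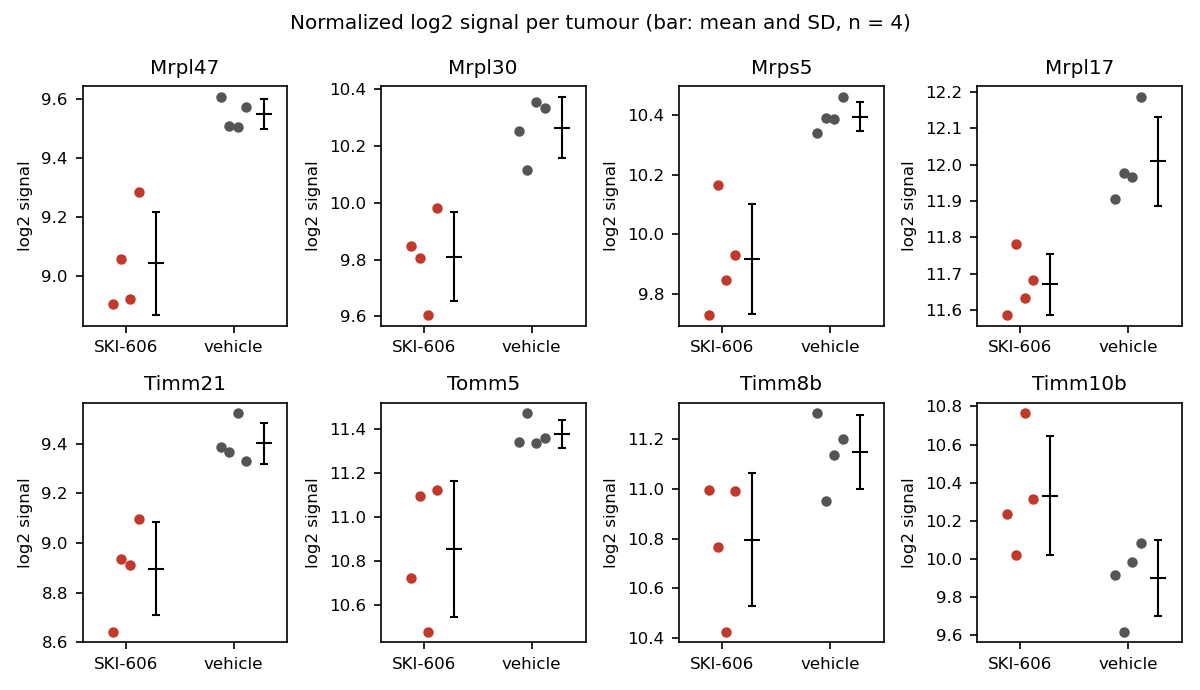
Normalized log2 signal (y axis, which does not start at 0) of 8 members in each SKI-606 and vehicle tumour, with mean and SD (n = 4). Mrpl47, Mrpl30, Mrps5, Mrpl17, Timm21 and Tomm5 show no overlap, with SKI-606 lower, while Timm8b and Timm10b overlap.

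Of the TOM complex 5 of 6 measured genes had a lower mean, with a median difference of -0.06. At an unadjusted p under 0.05, 1 of 6 (16.7%) was lower, beside 10.3% of all probes, so this count is near the background. The 1 TOM gene at that level was Tomm5, a small subunit that binds the channel. It read 10.72, 11.10, 10.48 and 11.13 in SKI-606 tumours and 11.34, 11.47, 11.34 and 11.36 in vehicle tumours. The vehicle tumours were alike, whereas the SKI-606 tumours lay in a pair near the vehicle level (replicates 2 and 4) and a pair further below it. The difference was -0.52 ± 0.15 (SE), a level 1.44-fold lower, with an interval of -0.87 to -0.18 and a limma adjusted p of 0.176.

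Tomm40, the channel itself, read 6.36 ± 0.11 and 6.40 ± 0.08 (SD, n = 4), with an interval for the difference of -0.20 to 0.13. Tomm22, the central receptor, read 7.40 ± 0.10 and 7.49 ± 0.08, with an interval of -0.26 to 0.08 and a difference of -0.09, or -0.04 without SKI-606 replicate 1. The Tomm40 probe was dim, whereas that of Tomm22, with a mean log2 signal of 7.44, lay near the median of all probes (7.39). Both differences lay within the spread between tumours. The receptor gene Tomm70a read 6.55, 6.79, 6.57 and 6.94 against 7.08, 7.04, 7.41 and 6.11. Vehicle replicate 4 was the lowest of the 8 arrays, and the difference of -0.20 became -0.47 without it and -0.03 without vehicle replicate 3. The other small subunits, Tomm7 and Tomm6, differed by -0.02 and 0.11.

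Among the TIM genes 3 of 4 had a lower mean. Timm21, a TIM23 subunit that contacts the TOM complex, read 8.64, 8.94, 8.91 and 9.09 with SKI-606 and 9.39, 9.37, 9.52 and 9.33 with vehicle. The difference was -0.50 ± 0.10 (SE), a level 1.42-fold lower, with an interval of -0.74 to -0.27 and a limma adjusted p of 0.113. Timm21 was the member with most probes, and its other 2 probes, with mean log2 signals of 7.08 and 6.22, differed by -0.73 and -0.20. All 3 probes had SKI-606 values below all vehicle values, and probes of a gene share the same RNA.

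Timm8b, a small Tim chaperone, read 11.00, 10.77, 10.43 and 10.99 against 11.30, 10.95, 11.14 and 11.20, a difference of -0.35 ± 0.14 (SE; limma adjusted p = 0.282) that was -0.23 without SKI-606 replicate 3. Timm9, the partner of Timm10 in the main small Tim hexamer, read 10.45 in SKI-606 replicate 1 and 11.04 to 11.24 in the other 3. Its difference of -0.23 was -0.05 without that array. Timm10b, a small Tim of the TIM22 complex, went the other way, at 10.23, 10.02, 10.76 and 10.31 against 9.92, 9.62, 9.98 and 10.08. SKI-606 replicate 2 was the one tumour of its group within the vehicle range, and the difference was 0.43 ± 0.17 (SE; interval 0.03 to 0.83; limma adjusted p = 0.275), or 0.29 without SKI-606 replicate 3. It was the member with the largest positive difference.

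The tumours differed in how far they lay below the vehicle level. SKI-606 replicate 3 had a median deviation of the 43 members from their vehicle means of -0.31. For replicates 1, 2 and 4 it was -0.22, -0.21 and -0.09. The vehicle tumours lay between -0.04 and 0.07. SKI-606 replicate 3 was the lowest of the 8 arrays for 17 members and replicate 1 for 13, while replicate 4 was lowest for 0. Vehicle replicate 4 was highest for 18 and vehicle replicate 3 for 11. The smallest array weights fell on SKI-606 replicate 3 (0.390), SKI-606 replicate 1 (0.436) and vehicle replicate 4 (0.455). The part of array quality in these counts was not tested. The members' mean log2 signal was 9.58 ± 0.10 with SKI-606 and 9.77 ± 0.05 with vehicle (SD, n = 4). The mean of all probes tested was 7.94 in both groups, but quantile normalization makes that mean nearly equal whatever the samples. SKI-606 replicate 4 (9.71) and vehicle replicate 2 (9.72) were the nearest tumours of the 2 groups. Median SDs of the members were 0.19 among SKI-606 and 0.12 among vehicle tumours, close to those of all probes (0.19 and 0.13).

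**Figure D4:**
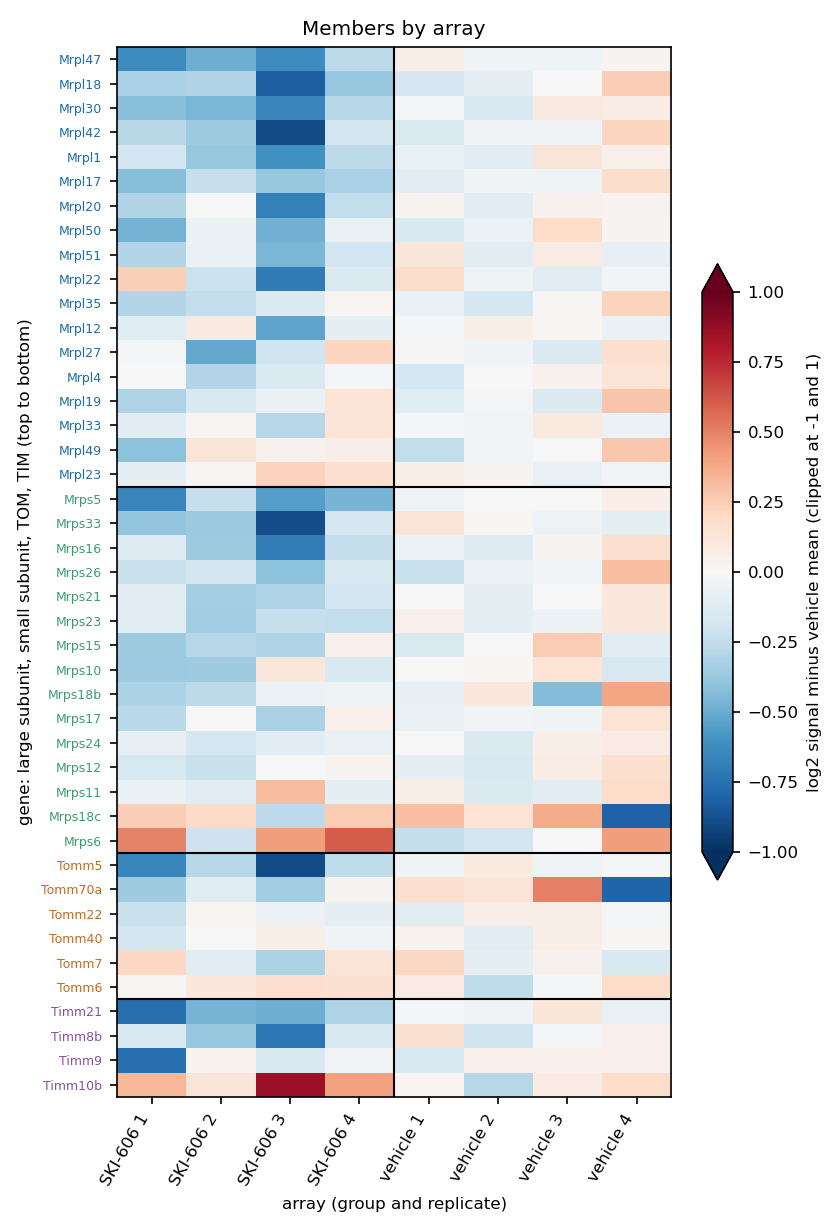
Log2 signal of each member minus its vehicle mean (colour, blue below and red above 0) for the 8 arrays (columns), with genes ordered by role and difference. Blue is deepest in SKI-606 replicate 3, most frequent in replicate 1 (36 of 43 members) and palest in replicate 4, and Mrps18c and Tomm70a are low in vehicle replicate 4.

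Genes that work with these proteins but have other symbols were followed in 6 lists, and no gene of them passed the adjusted threshold. Over all probes 10.3% were lower and 6.04% higher at an unadjusted p under 0.05. Without overlap of groups, 7.42% of all probes were lower and 3.76% higher. Few genes of each list were measured, so the counts below describe those genes alone. Ribosome proteins without an Mrp symbol and assembly factors had 4 of 4 measured genes lower (of 23 listed), 3 at an unadjusted p under 0.05, with a median difference of -0.34. Dap3, a GTP-binding protein of the small subunit, read 11.27, 11.50, 11.38 and 11.42 with SKI-606 and 11.88, 11.65, 11.77 and 11.75 with vehicle, a difference of -0.37 ± 0.07 (SE; limma adjusted p = 0.113) without overlap. Mtg1, a GTPase of ribosome assembly, differed by -0.83 ± 0.23, with no overlap, and its SKI-606 values ran from 6.75 (replicate 1) to 7.94 (replicate 3). Mterf4, which guides a ribosomal RNA methylase, differed by -0.17 ± 0.07.

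The translation factors and the transfer RNA synthetases of mitochondria held 0 genes at an unadjusted p under 0.05, of 5 and 8 measured (limma). Their medians were -0.09 and -0.05. The elongation factor gene Tufm differed by -0.18 ± 0.13 (SE), the initiation factor gene Mtif3 by -0.10 ± 0.07 and Mtif2 by 0.07 ± 0.08. Of the synthetase genes, Iars2 differed by -0.29 ± 0.15 and Vars2 by -0.56 ± 0.31.

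Import partners, chaperones and peptidases were evenly divided, 4 lower and 4 higher of 8 measured, with a median of -0.01. Romo1, a small inner membrane protein of the TIM23 complex, read 10.83, 10.71, 10.68 and 10.74 with SKI-606 and 10.52, 10.45, 10.43 and 10.65 with vehicle, higher by 0.23 ± 0.07 (SE; limma adjusted p = 0.185) without overlap. The matrix chaperone gene Hspa9, which pulls precursors inward, differed by -0.17 ± 0.14, and its exchange factor Grpel2 by 0.12 ± 0.10. In the list of mitochondrial DNA and transcription genes, 2 of 12 listed were measured. The helicase gene Twnk and the RNA-binding gene Slirp differed by -0.16 ± 0.06 and -0.18 ± 0.08 (SE), both without overlap. The Twnk probe was dim, at 6.20 ± 0.06 and 6.36 ± 0.09 (SD, n = 4), where Slirp read 10.42 ± 0.16 and 10.60 ± 0.05.

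Among transcriptional regulators of such genes 3 were measured. Gabpa, the DNA-binding subunit of the ETS factor GABP, read 6.55, 6.50, 6.27 and 6.63 against 6.80, 6.85, 6.85 and 6.76, a difference of -0.33 ± 0.08 (SE; limma adjusted p = 0.154) without overlap. Its partner gene Gabpb1 differed by -0.20 ± 0.11. The coactivator gene Ppargc1b was higher by 0.74 ± 0.25 (SE; limma adjusted p = 0.219), with SKI-606 values of 8.49, 7.44, 7.71 and 7.53. Of these, replicate 2 stood level with the highest vehicle tumour (7.44). The Gabpa probe was dim.

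For related gene families in the same fit, 48 of 70 genes with symbols Rpl and Rps of the cytosolic ribosome were lower, with a median of -0.09. Of the 70, 16 (22.9%) were lower at an unadjusted p under 0.05 and 13 (18.6%) were lower without overlap, shares that lie between those of the members and of all probes. For 47 genes of the respiratory chain and ATP synthase, which the mitochondrial ribosome and import serve, 31 were lower, with a median of -0.05, and 3 (6.38%) were lower at an unadjusted p under 0.05. The cytosolic ribosomal probes were brighter than the members, with a median log2 signal of 13.64 against 9.90, where the brightest normalized value was 14.26. For the respiratory chain and ATP synthase it was 11.09. Neither the difference between these families and the members nor the part of brightness in it was tested.

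Summed signals of endothelial and of fibroblast and matrix markers differed between the groups without overlap, and those of the other 5 marker lists overlapped. Endothelial markers were higher in SKI-606 tumours for 6 of 6 measured (of 13 listed), with a summed normalized signal of 1654 to 2353 against 1143 to 1446. Fibroblast and matrix markers were higher for 8 of 9 (of 15 listed), at 13798 to 17374 against 7571 to 11357. The adipocyte genes Lpl and Pnpla2, the 2 measured of 11 listed, summed to 2501 to 8944 against 2184 to 3312, and Fabp4 was not detected on enough arrays. Luminal epithelial markers were higher for 2 and lower for 3 of 5 measured (of 10 listed), at 13012 to 22623 against 17095 to 18761. Of macrophage markers 3 of 4 were lower (of 10 listed), at 1414 to 1964 against 1510 to 1964. Of lymphocyte and muscle markers 1 each was measured: Cd3e at 65.2 to 90.1 against 65.3 to 70.4, and Actn3 at 66.1 to 195.5 against 64.97 to 214.0. The part of these cell types in the members' lower values was not tested, and in bulk tissue fewer cells of a type cannot be told apart from less RNA per cell.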

How the data were processed

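RNA of 8 tumour samples was measured on Illumina bead arrays of 24611 probes. Per the file headers, the deposited table gives an average intensity and a detection p-value per probe and array. Its values have unequal medians between arrays and none is below 0, so they were taken as not normalized and not background-subtracted. A further intensity table deposited by the authors holds 11434 probes whose columns share the same quantiles (medians of 234.2 to 234.4 on a linear scale), used here as an alternative. The array software is not given in the sources used here. Per the labels, 8 ng of RNA was reverse transcribed. Groups and numbers are those of the sample titles, and the 1 vehicle sample without a number is called 3.

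From the deposited intensities, neqc (limma 3.58.1, R 4.3.3, offset 16) gave background-corrected, quantile-normalized log2 values. After removal of 4 bacterial control probes, 12281 probes with a detection p-value under 0.05 on at least 4 arrays were tested with limma's lmFit and eBayes on group, without covariates, with Benjamini-Hochberg adjustment over all of them. The test was tried on simulated data. Probes were named by the zero-padded number in their identifier, read as an Entrez gene ID: 92.7% of 7968 such numbers met a gene of the RefSeq table (GRCm38.p6), against 48.9% after adding 1. The number of arrays limits precision. Named genes were, per role, up to 4 with the smallest p in each direction, the brightest and the dimmest, and a fixed set of well-known members, and up to 3 per list of partner genes, of which 1 is not reported here. Others named in the text were chosen after their values were seen. The members and lists were chosen with earlier results of these data known. Figures were drawn with matplotlib 3.10.9.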

Additional observations from a re-analysis of the deposited data

Results flagged for a closer look

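In 96 groups of 4 tumours (43 members and 5 means over them, in each treatment), 7 held a tumour whose gap to its nearest neighbour took up most of the group's range (above Dixon's critical value for 4 samples). Chance flags about 1 in 20 groups. Mrpl18 was at 7.75 in SKI-606 replicate 3, where the other 3 read 8.19 to 8.27. In the same tumour Mrps18c was at 10.01 (others 10.46 to 10.52) and Mrps11 at 8.81 (others 8.38 to 8.42). Mrpl49 was at 9.13 in SKI-606 replicate 1 (others 9.58 to 9.66), and Mrps15 at 7.91 in SKI-606 replicate 4 (others 7.51 to 7.58). Among vehicle tumours, Mrpl20 was at 10.94 in replicate 2 (others 11.09 to 11.10) and Timm9 at 11.05 in replicate 1 (others near 11.26).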

How the results depend on the processing

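The members' median of -0.20 ran from -0.23 to -0.17 with 1 array left out, and the count lower at an unadjusted p under 0.05 from 11 to 17. Medians by role, with 1 array left out, ran from -0.28 to -0.18 (large subunit), -0.21 to -0.13 (small subunit), -0.36 to -0.23 (TIM) and -0.09 to -0.02 (TOM). With arrays scaled to 1 median the median of all probes moved to -0.15 and that of the members to -0.48 (large subunit -0.52, small subunit -0.48, TIM -0.59, TOM -0.34). In that setting 2568 probes were lower and 124 higher at an unadjusted p under 0.05 (1262 and 742 before), 19 members were lower and 0 higher, and groups did not overlap for 6 members and 1474 probes. With array weights the members' median was -0.12, as was that of the small subunit, with 1 member passing and 2 higher at an unadjusted p under 0.05. The median of all probes was 0.0038 with cyclic loess and -0.00049 without the detection filter. The authors' values gave 37 members with a lower mean and a median of -0.20. Of these, 12 were lower at an unadjusted p under 0.05, beside 1120 of 11109 probes.

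Over all probes, the count past an adjusted p of 0.05 was 1. It was 0 with arrays scaled to 1 median, an offset of 50, detection on all 8 arrays, an intensity trend with robust prior, and the replicate block, 185 with array weights, and 30 at a threshold of 0.1. With 1 array left out that count ran from 0 to 13, non-overlapping probes from 1683 to 2324, and members higher at an unadjusted p under 0.05 from 0 to 2. The single higher member, Timm10b, lost that level without SKI-606 replicate 1, 3 or 4 or any of vehicle replicates 1, 2 and 3. Samples numbered 2 deviated together from their group means (correlation 0.63 across probes) and those numbered 1 and 4 did not (0.004 and -0.02), so the numbers were not taken as pairs. SKI-606 replicate 2 and vehicle replicate 2 were the second closest of the 28 pairs of arrays (correlation 0.984). With the number as a replicate block, 943 probes were lower and 488 higher at an unadjusted p under 0.05, of 12281. At that level 11 of 43 members were lower and 1 higher, and the members' median was -0.16. The groups of those 6 arrays did not overlap for 12 members and 2133 probes, and Tomm70a differed by 0.016. With 1 array left out Tomm40 ran from -0.076 to 0.0095 (above 0 without SKI-606 replicate 1). The cause of these changes was not tested.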
